A study of Rattus norvegicus with 9 samples.

Results

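The genes described here are caspases and the proteins that switch them on or hold them back: Casp1, Casp2, Casp6, Casp8, Casp9, Apaf1, Cycs and Xiap. They were taken by symbol from the table of gene counts, in which all 8 were listed among 37203 symbols. The low-count filter kept 7 of the 8, among 15482 genes tested, and removed Casp6. Transcripts were measured by RNA sequencing of the superior mesenteric artery (SMA), the vessel that supplies most of the small intestine, in Sprague-Dawley rats that were 8 weeks old and weighed 220 to 240 g. There were 3 groups of 3 libraries: Normal, ischemia 1 h and ischemia 4 h. In order to produce ischemia, rats anaesthetised with sodium pentobarbital were bled of a large share of their total blood volume from a femoral artery. The ischemia was thus one of blood loss from the whole body. At its end the rats were killed with the same drug, and the artery was then taken. No allele and no other drug was named for any group, and it is not given whether the normal rats underwent the same surgery without bleeding. The arteries were whole tissue, so that a lower transcript level from fewer cells of a type cannot be told apart from less RNA per cell.

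Caspases are proteases that cut their targets after aspartate and are made as inactive precursors. In the intrinsic pathway, cytochrome c (encoded by Cycs), an electron carrier of the respiratory chain, leaves damaged mitochondria and binds Apaf1. Apaf1 then assembles into the apoptosome, which activates the initiator caspase-9, and caspase-9 in turn cuts the executioner caspases. The extrinsic pathway starts at death receptors and passes through caspase-8. Xiap binds and blocks caspase-9 and executioner caspases. Release of cytochrome c and cutting of caspases are changes of protein, which transcript counts do not show.

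The promoters of Cycs, Apaf1 and Casp1 are shown because each of them held 1 of the motifs searched for. A further reason was that the mean transcript levels of Cycs and Apaf1, the partners that assemble into the apoptosome, lay on opposite sides of normal. Neither gene was called in the main test given below, and Apaf1 overlapped normal at 4 h. RefSeq (assembly GRCr8) gave a window of 300 bases, from 250 before to 50 after the start of the gene, for 6 of the 8 genes. The Cycs window lies on the minus strand at chr4:80984718-80985017, the Apaf1 window on the minus strand at chr7:27466723-27467022 and the Casp1 window on the plus strand at chr8:10872580-10872879. The sequences run 5′ to 3′ on the strand of the gene, and capitals mark the match.
Cycs: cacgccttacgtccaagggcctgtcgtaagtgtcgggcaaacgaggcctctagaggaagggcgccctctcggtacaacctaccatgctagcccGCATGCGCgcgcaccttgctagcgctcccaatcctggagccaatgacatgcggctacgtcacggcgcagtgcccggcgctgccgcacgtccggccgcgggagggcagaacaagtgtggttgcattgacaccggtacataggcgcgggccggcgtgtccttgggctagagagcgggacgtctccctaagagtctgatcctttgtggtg
Apaf1: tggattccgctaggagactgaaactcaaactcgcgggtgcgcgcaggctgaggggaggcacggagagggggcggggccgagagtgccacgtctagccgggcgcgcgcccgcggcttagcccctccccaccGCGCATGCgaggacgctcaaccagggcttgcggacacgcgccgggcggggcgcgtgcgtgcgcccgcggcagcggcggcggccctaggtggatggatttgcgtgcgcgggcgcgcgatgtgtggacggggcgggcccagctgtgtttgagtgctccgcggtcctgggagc
Casp1: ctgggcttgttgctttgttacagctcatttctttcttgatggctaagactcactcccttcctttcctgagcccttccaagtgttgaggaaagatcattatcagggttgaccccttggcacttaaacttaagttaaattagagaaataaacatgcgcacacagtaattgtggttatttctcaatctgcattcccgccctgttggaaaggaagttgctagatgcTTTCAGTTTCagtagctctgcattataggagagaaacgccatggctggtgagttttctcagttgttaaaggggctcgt

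The capitals in the Cycs and Apaf1 windows are the letters GCATGCGC, read on either strand, a core of the site bound by Nrf1, a factor known for genes of the respiratory chain. They stood 157 to 150 bases before the start of Cycs and 120 to 113 bases before the start of Apaf1, and 2.47% of 33469 RefSeq promoter windows held them. In the Casp1 window the capitals mark TTTCNNTTTC, the letters of an interferon-stimulated response element, 28 to 19 bases before the start, which 3.92% of the windows held on either strand. The windows of Casp2, Casp6 and Casp9 held neither run of letters. The motifs do not overlap each other in any of these windows, and a match is a run of letters in a window, not a shown binding site. The transcript of Nrf1 itself was at 26.2 ± 3.08 CPM in normal arteries, 20.6 ± 5.14 CPM at 1 h and 25.6 ± 8.39 CPM at 4 h (SD, n = 3, where CPM are counts scaled by library size).

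Total counts per library ran from 13114273 to 15504240, and 1 CPM stood for 12.1 to 17.9 counts after scaling. Smooth muscle markers were abundant in every library, but the libraries of a group did not hold the same mix of tissue. Normal replicate 1 stood apart, with a summed level of 7 smooth muscle markers of 10382 CPM against 44985 and 45598 CPM in the other normal libraries, where the ischemic libraries ran from 11897 to 65254 CPM. It was also highest in Schwann cell markers (3775 CPM, against 205 to 1984 CPM in the other 8 libraries). Replicates 1 and 3 at 1 h and replicate 3 at 4 h held 8916 to 9217 CPM of sympathetic nerve markers, while the other libraries held 49.6 to 1000.2 CPM. None of the 8 lists of cell type markers had a member called in any comparison. Calls were rare over all genes tested, at 0.0581% at 1 h, 0.0904% at 4 h and 0% at 4 h against 1 h. The median log2 fold changes at 1 h and 4 h were 3.98 and 2.96 for nerve markers and -0.40 and 0.41 for smooth muscle markers. Because the mix of tissue differed, the fold changes of the 7 genes tested are given with all 9 libraries. They are also given without normal replicate 1 where that library moved them by more than 1.5 times.

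**Figure D1:**
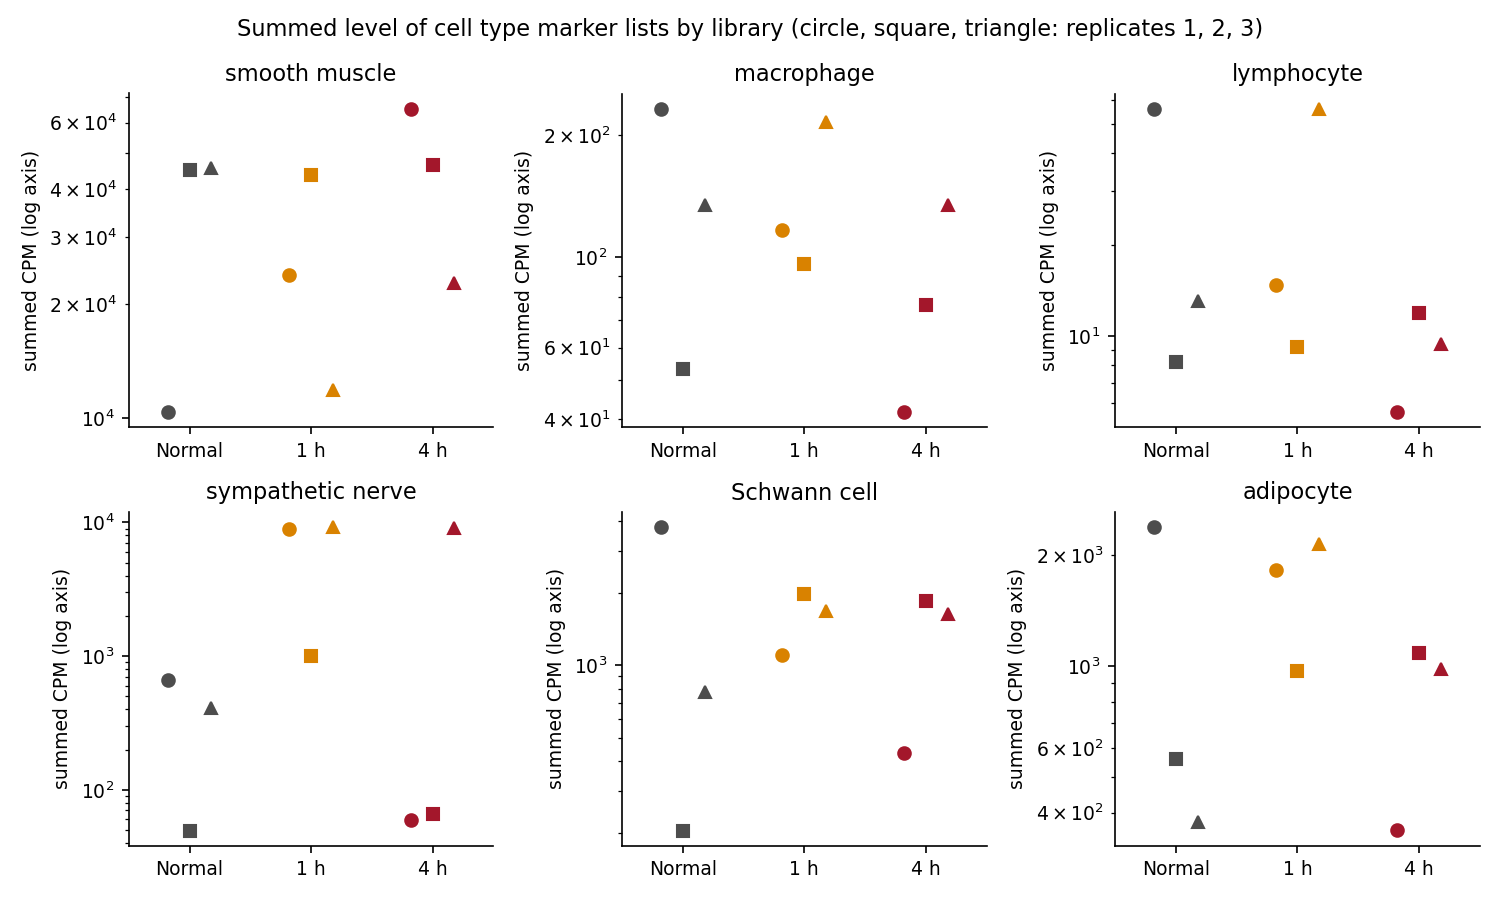
Summed CPM (log axis) of 6 lists of cell type markers in each of the 9 libraries, by group, with circles, squares and triangles for replicates 1, 2 and 3. Normal replicate 1 is low in smooth muscle markers (10382 CPM) and highest in Schwann cell markers (3775 CPM), and the nerve markers reach 8916 to 9217 CPM in 3 ischemic libraries.

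Compared with the normal group, Cycs was higher and Casp2 and Casp8 were lower at both times, each at an unadjusted p under 0.05. Cycs was 1.91-fold of normal at 1 h and 1.99-fold at 4 h, while Casp8 was 0.426-fold and 0.284-fold, and Casp2 was 0.669-fold and 0.642-fold. Casp9 and Apaf1 were lower by smaller amounts, Casp1 varied as much within the normal group as between groups, and Xiap was at 1.05-fold of normal at 1 h and 0.755-fold at 4 h. For a call, edgeR's quasi-likelihood test had to give an adjusted p below 0.05, over all genes tested, together with a change of more than 1.5-fold. By that rule 0 of the 7 genes tested were called at either time, where 0.0581% of all genes tested were called at 1 h and 0.0904% at 4 h. At an unadjusted p under 0.05, 1 gene was higher and 2 were lower at 1 h, where 7.98% of all genes tested were higher and 8.67% lower at that p. The counts at 4 h were again 1 higher and 2 lower, where the shares of all genes were 5.07% and 7.35%. DESeq2, a second test of the same counts, called Cycs at 1 h and both Cycs and Casp8 at 4 h, while it called 4.8% and 4.08% of all genes at those times. Both comparisons use the same 3 normal libraries, so that a shift in those libraries enters both.

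**Figure D2:**
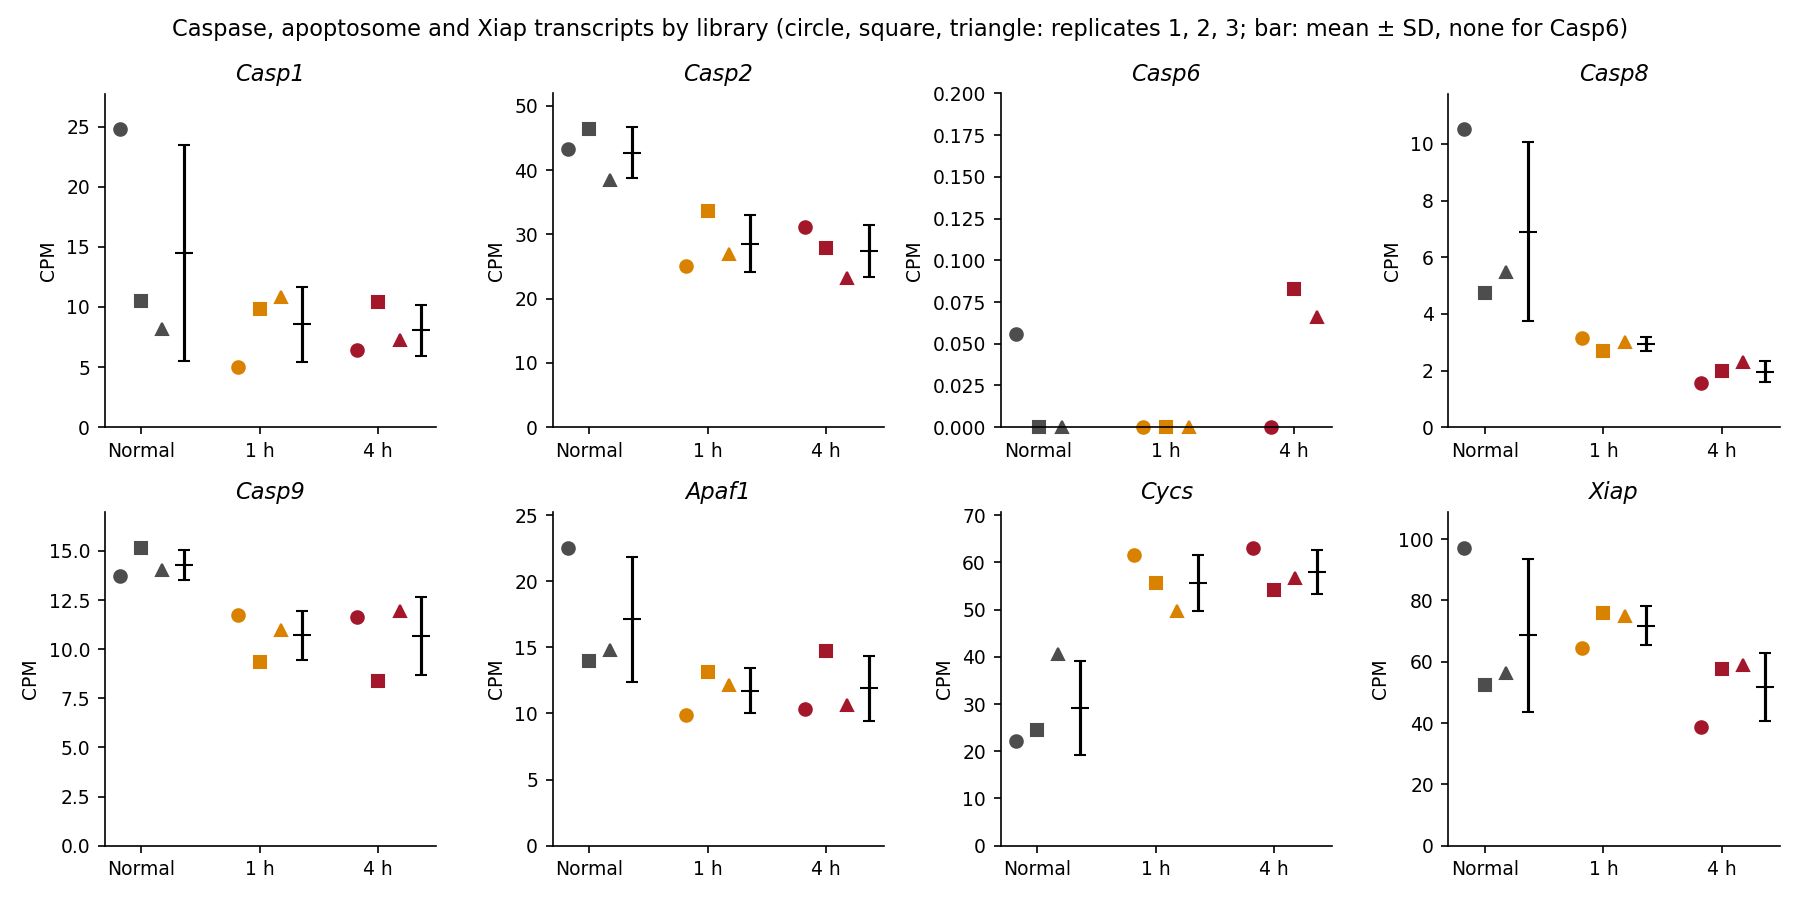
CPM of the 8 genes in each library, by group, with circles, squares and triangles for replicates 1, 2 and 3 and bars for the mean and SD of 3 libraries (none for Casp6, which had 3 counts in all). All 6 ischemic libraries lie above the normal ones for Cycs and below them for Casp2, Casp8 and Casp9.

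Cycs, the gene of cytochrome c, gave 22.3, 24.5 and 40.5 CPM in normal replicates 1 to 3, 61.5, 55.7 and 49.7 CPM at 1 h and 63.1, 54.2 and 56.7 CPM at 4 h. Every ischemic library lay above the highest normal one, which itself stood well above the other normal libraries. The log2 fold change was 0.94 (SE 0.24) at 1 h, with an unadjusted p of 0.00425 and an edgeR adjusted p of 0.210. It was 1.00 (SE 0.24) at 4 h, with an unadjusted p of 0.00301 and an edgeR adjusted p of 0.162. DESeq2 gave adjusted p-values of 0.0287 and 0.0169, and over the alternatives tried they ranged from 0.0287 to 0.591 at 1 h and from 0.0169 to 0.418 at 4 h. With each library left out in turn, the log2 fold change stayed between 0.78 and 1.25 at 1 h and between 0.83 and 1.31 at 4 h. Cytochrome c has processed copies in rodent genomes, and whether the counting split reads among them is not given in the sources used here, so the level of Cycs is uncertain to that extent.

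Genes that make, use or accompany cytochrome c were examined beside it. Of 12 such genes listed, 11 were tested and 0 had an unadjusted p under 0.05 at 1 h or at 4 h. Over all genes tested, 16.7% passed that p at 1 h and 12.4% at 4 h, so 0 among 11 is not far from those shares. The median log2 fold changes of the 11 were 0.04 and 0.05. The median of all genes tested was -0.01 at 1 h and 0.03 at 4 h. Cyc1, the cytochrome c1 subunit that hands electrons to cytochrome c, was at 84.3 ± 21.6 CPM in normal arteries, 94.3 ± 17.8 CPM at 1 h and 109.7 ± 18.7 CPM at 4 h (SD, n = 3). Hccs, the enzyme that attaches heme to cytochrome c, was at 14.4 ± 1.15, 14.6 ± 1.32 and 10.9 ± 2.56 CPM. Cyct, the testis form of cytochrome c, had no count in any library.

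Apaf1, the scaffold of the apoptosome, gave 22.5, 14.0 and 14.8 CPM in normal arteries, 9.89, 13.2 and 12.2 CPM at 1 h and 10.3, 14.7 and 10.6 CPM at 4 h. The 1 h libraries lay below all normal ones, whereas 1 library at 4 h overlapped them. Its log2 fold change was -0.55 (SE 0.26, edgeR adjusted p 0.318) at 1 h and -0.53 (SE 0.26, edgeR adjusted p 0.463) at 4 h. Without normal replicate 1, which had the highest Apaf1 level, the values were -0.30 and -0.28. The ratio of Cycs to Apaf1 counts within a library, which needs no scaling between libraries, was 0.988, 1.75 and 2.73 in normal arteries. It was 6.22, 4.23 and 4.09 at 1 h and 6.11, 3.67 and 5.33 at 4 h, so that no ischemic library overlapped the normal range. At 1 h this follows from Cycs lying wholly above normal and Apaf1 wholly below, and at 4 h Cycs alone lay wholly above. The ratio is therefore no separate evidence, and the share of other gene pairs that separate was not counted.

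Casp9, the caspase that the apoptosome activates, gave 13.7, 15.2 and 14.0 CPM in normal arteries, 11.8, 9.35 and 10.99 CPM at 1 h and 11.6, 8.37 and 11.9 CPM at 4 h. It was the steadiest of the genes within the normal group and lay below that group in all 6 ischemic libraries. Casp9 had a log2 fold change of -0.42 (SE 0.21) at both times, with edgeR adjusted p-values of 0.329 and 0.463 and unadjusted p-values of 0.0837 and 0.0802. Leaving out normal replicate 1 gave -0.45 (unadjusted p 0.113) at 1 h and -0.45 (unadjusted p 0.108) at 4 h. The value at 4 h was -0.28 (unadjusted p 0.256) without replicate 2 at 4 h.

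The apoptosome has its own regulators, and 5 genes were listed under that heading and tested. Anp32a, a protein known to promote apoptosome activity, was at 50.2, 42.5 and 43.5 CPM in normal arteries, 30.5, 33.7 and 28.2 CPM at 1 h and 30.6, 39.6 and 32.2 CPM at 4 h. All ischemic libraries lay below the normal ones, with log2 fold changes of -0.56 (SE 0.17, unadjusted p 0.00990) at 1 h and -0.41 (SE 0.17, unadjusted p 0.0393) at 4 h. Hspa4, a heat shock protein of the Hsp70 family whose own part in the apoptosome is not shown here, had a log2 fold change of 0.59 at 1 h. Its SE was 0.25 and its unadjusted p 0.0446. At 4 h the log2 fold change of Hspa4 was 0.48 (SE 0.25, unadjusted p 0.0870). Neither was called, where edgeR called 0.0581% of all genes tested at 1 h and 0.0904% at 4 h. The other 3 (Aven, Ptma and Cse1l) had an unadjusted p of at least 0.05 at both times. At an unadjusted p under 0.05, 1 of the list was higher and 1 lower at 1 h, and 0 were higher and 1 lower at 4 h. Of all genes tested, 7.98% were higher and 8.67% lower at that p at 1 h, and 5.07% and 7.35% at 4 h. The medians of the list were -0.10 and 0.12.

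Casp2, an initiator caspase whose known platform contains Pidd1 and Cradd, gave 43.3, 46.4 and 38.5 CPM in normal arteries, 25.1, 33.6 and 27.0 CPM at 1 h and 31.1, 27.9 and 23.2 CPM at 4 h. All 6 ischemic libraries lay below the 3 normal ones, while 1 h and 4 h overlapped each other. The log2 fold change was -0.58 (SE 0.19) at 1 h, with an unadjusted p of 0.0142 and an edgeR adjusted p of 0.241. It was -0.64 (SE 0.19) at 4 h, with an unadjusted p of 0.00881 and an edgeR adjusted p of 0.223. Normal replicate 1 had little part in this, since without it the values were -0.57 and -0.63. At 1 h the unadjusted p was 0.0520 without normal replicate 2, and with the nerve markers as a term in the model the log2 fold change was -0.37 (unadjusted p 0.0802). The adaptor Cradd was at 3.10 ± 0.472 CPM in normal arteries, 3.14 ± 0.290 CPM at 1 h and 3.80 ± 1.26 CPM at 4 h (SD, n = 3).

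Casp8, the initiator caspase of death receptors and a brake on necroptosis, showed the lowest values relative to normal of the 7 genes. It gave 10.5, 4.74 and 5.46 CPM in normal arteries, 3.14, 2.67 and 3.01 CPM at 1 h and 1.57, 1.99 and 2.31 CPM at 4 h. The levels stood in 3 bands, with all 1 h libraries below normal and all 4 h libraries below 1 h. These are low counts, 65 to 188 per normal library, 40 to 49 per library at 1 h and 19 to 35 at 4 h. The log2 fold change at 1 h was -1.23 (SE 0.37), with an unadjusted p of 0.00997 and an edgeR adjusted p of 0.232. At 4 h it was -1.82 (SE 0.38), with an unadjusted p of 0.00124 and an edgeR adjusted p of 0.115. DESeq2 gave adjusted p-values of 0.0574 at 1 h and 0.00183 at 4 h, and over the alternatives these ran from 0.0574 to 0.598 and from 0.00183 to 0.330. Normal replicate 1 held the highest level, and without it the log2 fold changes were -0.79 (unadjusted p 0.0439) and -1.38 (unadjusted p 0.00362).

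Casp8 is abundant in leukocytes, and their markers were examined beside it. The 9 macrophage markers found in the table summed to 53.1 to 232 CPM in normal arteries, 96.2 to 215 CPM at 1 h and 41.7 to 134 CPM at 4 h, with normal replicate 1 the highest of all, and 0 of the 9 had an unadjusted p under 0.05 at either time. Lymphocyte markers summed to 8.24 to 55.9 CPM, 9.21 to 56.1 CPM and 5.62 to 11.9 CPM, and 3 of the 12 passed the filter. Of these 3, 0 had an unadjusted p under 0.05 at 1 h and 1 was lower at 4 h, with medians of -0.45 and -1.12. The macrophage medians were -0.08 and -0.69. Neutrophil markers went the other way, with medians of 1.85 and 1.29, but only 2 of the 7 listed were tested. Of these 2, 0 had an unadjusted p under 0.05 at either time. The list summed to 0.516 to 3.13 CPM in normal arteries, 2.07 to 6.68 CPM at 1 h and 0.991 to 4.75 CPM at 4 h. Over all genes tested, 16.7% passed that p at 1 h and 12.4% at 4 h, so counts among 9, 3 and 2 markers say little. Cd79a was at 0 in every library, and the part of lymphocytes or neutrophils in the Casp8 values was not tested. With the macrophage markers as a term in the model, the log2 fold change of Casp8 was -1.17 (unadjusted p 0.00496) at 1 h and -1.43 (unadjusted p 0.00334) at 4 h, neither of which was called.

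The proteins that act upstream of caspase-8 and of the other initiators were listed as platforms and adaptors. Of 18 genes, 13 were tested and edgeR called 0 at 1 h and 0 at 4 h. At an unadjusted p under 0.05, 2 were higher and 2 lower at 1 h, and 0 were higher and 3 lower at 4 h, where 7.98% and 8.67% of all genes tested passed at 1 h and 5.07% and 7.35% at 4 h. The median log2 fold changes of the list were -0.24 and -0.60.

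Tnfsf10, the death ligand TRAIL, gave 54.7, 14.4 and 12.2 CPM in normal arteries, 5.01, 7.21 and 7.86 CPM at 1 h and 1.40, 7.87 and 4.22 CPM at 4 h. All ischemic libraries were below normal, with normal replicate 1 far above the others. For Tnfsf10 the log2 fold change was -2.02 (SE 0.73, unadjusted p 0.0238) at 1 h and -2.59 (SE 0.75, unadjusted p 0.00814) at 4 h, and without normal replicate 1 it was -0.99 and -1.56. DESeq2 called it at 4 h (adjusted p 0.0141, where the alternatives ran from 0.0141 to 0.459).

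Cflar, which encodes cFLIP, a catalytically inactive relative of caspase-8 that limits its activation, was higher than normal at 1 h, where Casp8 was lower. It gave 30.0, 28.0 and 20.1 CPM in normal arteries, 30.5, 62.2 and 64.8 CPM at 1 h and 23.6, 38.0 and 40.4 CPM at 4 h. Replicate 1 at 1 h lay only just above the highest normal library. Cflar had a log2 fold change of 1.01 (SE 0.34, unadjusted p 0.0167, edgeR adjusted p 0.255) at 1 h and 0.39 (SE 0.34, unadjusted p 0.283) at 4 h. Tnfrsf10b, a death receptor for TRAIL, had a log2 fold change of 0.82 (SE 0.32, unadjusted p 0.0332) at 1 h and 0.23 (SE 0.32, unadjusted p 0.503) at 4 h, or 0.36 without normal replicate 1 at 4 h. Fadd, the adaptor that joins death receptors to caspase-8, was at 2.97 ± 1.05 CPM in normal arteries, 2.19 ± 0.728 CPM at 1 h and 1.62 ± 0.965 CPM at 4 h (SD, n = 3).

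Casp6, an executioner caspase known for cutting nuclear lamins, was close to absent from these libraries. It had 1 count in normal replicate 1, 1 count in each of replicates 2 and 3 at 4 h, and 0 counts in the other 6 libraries. It was not tested, and no difference between groups was detectable at this depth. Whether the annotation behind the counts covers the whole Casp6 transcript is not given in the sources used here.

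Casp4, an inflammatory caspase, was at 21.7 ± 15.2 CPM in normal arteries, 16.5 ± 4.73 CPM at 1 h and 15.2 ± 1.36 CPM at 4 h (SD, n = 3). Its log2 fold changes were -0.39 (SE 0.49, unadjusted p 0.439) and -0.51 (SE 0.49, unadjusted p 0.322). Casp12, a caspase of the endoplasmic reticulum, was at 45.8 ± 21.8, 36.6 ± 17.9 and 51.3 ± 23.9 CPM, with log2 fold changes of -0.32 (SE 0.54, unadjusted p 0.569) and 0.16 (SE 0.54, unadjusted p 0.772). The 1 h and 4 h libraries of both genes overlapped the normal ones. Casp14 had no count in any library.

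**Figure D3:**
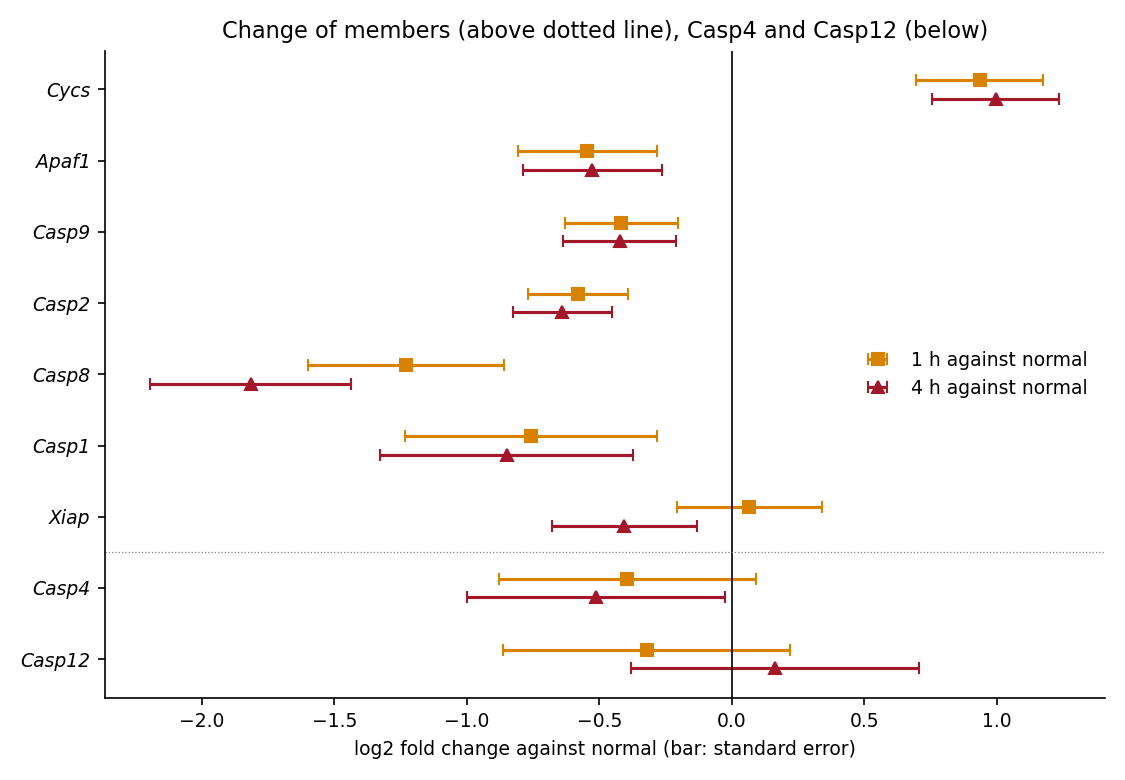
Log2 fold change against normal (x axis) of the 7 genes tested, above the dotted line, and of Casp4 and Casp12 below it. Squares show 1 h, triangles 4 h, and bars the standard error. Cycs lies at 0.94 and 1.00, and Casp8 reaches -1.82 at 4 h.

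Proteins that caspases cut, or that such a cut sets free, were listed to follow the pathway downstream. Of the 13, 12 were in the table and tested. None was called in edgeR at either time. At an unadjusted p under 0.05, 2 were lower at 1 h and 1 was lower at 4 h, against 8.67% and 7.35% of all genes tested. Dffb, the nuclease that fragments DNA in apoptosis once its inhibitor Dffa is cut, was at 9.88 ± 2.53 CPM in normal arteries, 5.98 ± 0.552 CPM at 1 h and 6.26 ± 1.19 CPM at 4 h. Its log2 fold changes were -0.72 (SE 0.28, unadjusted p 0.0290) and -0.66 (SE 0.28, unadjusted p 0.0425). Those of Dffa were 0.55 (SE 0.42, unadjusted p 0.227) and 0.14 (SE 0.42, unadjusted p 0.754). Parp1, a DNA repair enzyme whose cut form is a common sign of caspase activity, had -0.64 (SE 0.24, unadjusted p 0.0300) at 1 h and -0.28 (SE 0.24, unadjusted p 0.277) at 4 h. The medians of the list were 0.11 and 0.06, where those of all genes tested were -0.01 and 0.03.

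Casp1, the inflammasome caspase that matures interleukin-1β and cuts gasdermin D, gave 24.8, 10.5 and 8.19 CPM in normal arteries, 5.01, 9.82 and 10.9 CPM at 1 h and 6.44, 10.4 and 7.26 CPM at 4 h. The groups overlapped, and normal replicate 1 alone stood high. The log2 fold change was -0.76 (SE 0.48, edgeR adjusted p 0.396) at 1 h and -0.85 (SE 0.48, edgeR adjusted p 0.506) at 4 h. Without normal replicate 1 these were -0.13 (unadjusted p 0.761) and -0.22 (unadjusted p 0.602), so the lower mean in ischemia rested on that library. Without replicate 1 at 1 h the value at 1 h was -0.49. With the macrophage markers as a term in the model, the values were -0.70 (unadjusted p 0.144) and -0.45 (unadjusted p 0.391).

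Pycard, the adaptor (ASC) that bridges inflammasome sensors to caspase-1, gave 2.29, 1.09 and 3.10 CPM in normal arteries, 0.668, 1.00 and 1.17 CPM at 1 h and 0.661, 0.497 and 0.660 CPM at 4 h. The 4 h libraries lay below all normal ones, and replicate 3 at 1 h overlapped them. For Pycard the log2 fold change was -1.19 (SE 0.49, unadjusted p 0.0394) at 1 h and -1.82 (SE 0.50, unadjusted p 0.00633, edgeR adjusted p 0.202) at 4 h. Nlrp1a, an inflammasome sensor, had -0.91 (SE 0.44, unadjusted p 0.0705) at 1 h and -1.26 (SE 0.44, unadjusted p 0.0206) at 4 h. Gsdmd, the pore-forming target of caspase-1, was at 23.1 ± 2.43 CPM in normal arteries, 16.3 ± 1.77 CPM at 1 h and 19.7 ± 5.50 CPM at 4 h (SD, n = 3). Pycard was at about 1 to 3 CPM in normal arteries, so its values rest on few counts.

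Xiap, which binds caspases directly, gave 97.2, 52.3 and 56.3 CPM in normal arteries, 64.5, 76.1 and 74.9 CPM at 1 h and 38.8, 57.6 and 58.8 CPM at 4 h. The ischemic libraries overlapped the normal ones at both times, again with normal replicate 1 the highest. The log2 fold change was 0.07 (SE 0.27, edgeR adjusted p 0.912) at 1 h and -0.41 (SE 0.27, edgeR adjusted p 0.572) at 4 h. Without normal replicate 1 they were 0.40 (unadjusted p 0.111) and -0.07 (unadjusted p 0.760), and at 4 h the value was -0.10 with the macrophage markers as a term and -0.26 without replicate 1 at 4 h. The count ratio of Xiap to Casp8 within a library was 9.24, 11.03 and 10.3 in normal arteries, 20.5, 28.5 and 24.9 at 1 h and 24.7, 29.0 and 25.5 at 4 h. The normal libraries agreed closely in this ratio, normal replicate 1 included, and every ischemic library was above them. Casp8 alone already lay wholly below normal at both times, and both genes were highest in normal replicate 1. The ratio is made of those same values, and the share of other gene pairs that separate was not counted. The ratio of Xiap to Casp9 showed no such separation, from 3.45 to 7.09 in normal arteries, from 5.48 to 8.14 at 1 h and from 3.33 to 6.89 at 4 h.

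Other inhibitors of apoptosis and the mitochondrial proteins that oppose them were also listed. Of 12 symbols, 9 were in the table and 7 were tested, and at an unadjusted p under 0.05 3 were higher at 1 h and 0 at 4 h, against 7.98% and 5.07% of all genes tested. Birc3 (cIAP2), a ubiquitin ligase and a known NF-κB target, gave 8.33, 6.34 and 5.24 CPM in normal arteries, 8.09, 59.5 and 55.9 CPM at 1 h and 9.42, 12.8 and 32.3 CPM at 4 h. Replicate 1 at 1 h was at the normal level, and replicates 2 and 3 were far above it. Birc3 had a log2 fold change of 2.63 (SE 0.75, unadjusted p 0.00766, edgeR adjusted p 0.225) at 1 h and 1.45 (SE 0.73, unadjusted p 0.0790) at 4 h, or 0.74 without replicate 3 at 4 h. DESeq2 called it at 1 h (adjusted p 0.0111, where the alternatives ran from 0.0111 to 0.598).

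Birc2 (cIAP1), the closest relative of Birc3, gave 35.6, 31.6 and 39.4 CPM in normal arteries and 37.7, 84.4 and 61.0 CPM at 1 h, a log2 fold change of 0.78 (SE 0.28, unadjusted p 0.0237). Replicate 1 was again at the normal level, and without replicate 2 the log2 fold change was 0.47 (unadjusted p 0.0971). Diablo (Smac), which leaves mitochondria with cytochrome c and displaces Xiap from caspases, gave 21.3, 31.3 and 34.3 CPM in normal arteries, 61.0, 33.9 and 57.9 CPM at 1 h and 40.7, 36.3 and 56.1 CPM at 4 h. It had log2 fold changes of 0.81 (SE 0.30, unadjusted p 0.0243) at 1 h and 0.62 (SE 0.30, unadjusted p 0.0693) at 4 h, and replicate 2 at 1 h overlapped the normal group. Here replicate 2 was the low library at 1 h, where for Birc2, Birc3 and Cflar it was replicate 1. Replicates 1 and 3 at 1 h and replicate 3 at 4 h, the libraries rich in nerve markers, held 56.1 to 61.0 CPM of Diablo. The other ischemic libraries held 33.9 to 40.7 CPM, near the highest normal level of 34.3 CPM. The cause was not tested for Diablo. The medians of the list were 0.07 and 0.14. Among the pathway genes named at an unadjusted p under 0.05, that p held in all 9 fits that each left out 1 library for Anp32a and Birc3 at 1 h and for Tnfsf10 and Pycard at 4 h. For the others at least 1 such fit lost it.

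**Figure D4:**
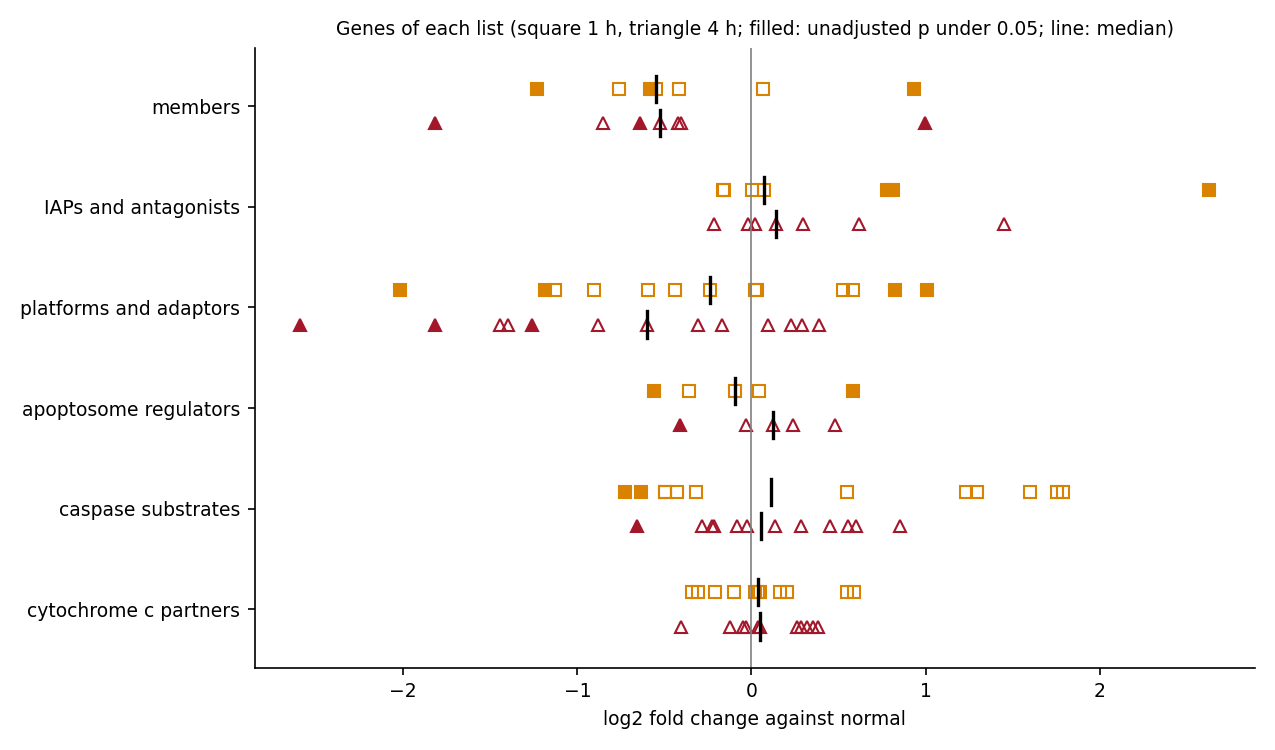
Log2 fold change against normal (x axis) of each gene tested in 6 lists, squares for 1 h and triangles for 4 h, filled at an unadjusted p under 0.05, with a line at each median. The medians of the 7 genes described here (-0.55 and -0.53) lie below 0, and that of the cytochrome c partners lies at 0.04 and 0.05.

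Counting libraries rather than tests, 4 of the 7 genes (Casp2, Casp8, Casp9 and Apaf1) had every 1 h library below every normal one, and 1 (Cycs) had every one above. Over all genes tested, 13.5% lay wholly below and 12.8% wholly above at 1 h. At 4 h, 3 genes (Casp2, Casp8 and Casp9) lay wholly below and Cycs wholly above, where the shares of all genes were 10.8% and 7.93%. With 3 libraries a group, this way of counting does not weigh how far apart the groups stood.

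To ask whether the later hours brought a further change, 4 h was set against 1 h. No gene of the 7 was called, and 0% of all genes were. At an unadjusted p under 0.05 the count was again 0, where 2.58% of all genes tested passed in either direction, and DESeq2 called 0 genes of the whole table. Casp8 had a log2 fold change of -0.58 (SE 0.37, unadjusted p 0.154) and Xiap of -0.47 (SE 0.27, unadjusted p 0.122). In both, all 4 h libraries lay below all 1 h libraries, a separation that 3.04% of all genes tested showed in that direction. With the nerve markers as a term the log2 fold changes were -0.24 for Casp8 and -0.26 for Xiap. The other 5 genes had values between -0.09 and 0.06.

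Among themselves, the genes that were lower in ischemia did not follow 1 pattern over the 9 libraries. Casp1 and Apaf1 were closest (Pearson's r = 0.92, Spearman's rho = 0.72 for log2 CPM), and both were highest in normal replicate 1. Casp9 was far from both, with r = 0.14 to Casp1 and 0.22 to Apaf1. Cycs ran against every other gene, from r = -0.38 with Xiap to r = -0.87 with Casp8. The 9 libraries include the group differences given above and share the tissue differences between libraries, so these values are descriptions only.

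The whole table was searched for the 3 genes most like each of the 7, among 10408 to 10409 genes with an average of at least 5 CPM. Casp2 was followed most closely by Irf2, an interferon regulatory factor, with r = 0.99 and a rho of 1.00, and by Plekhm1 and Zfp263. The closest to Xiap was Il10rb, a receptor chain for interleukin-10, with r = 0.99 and a rho of 1.00, before Adamts7 and Slc28a2. For Casp8 they were Lpar6 (r = 0.98), Dusp18 and Zfp758. For Cycs they were Hspa5, the endoplasmic reticulum chaperone BiP (r = 0.97), Ndufs4, a subunit of respiratory complex I (r = 0.97), and Zdhhc5. With the 2 libraries farthest from the median left out, Hspa5 kept r = 0.94 and Ndufs4 had r = 0.77.

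The remaining genes were matched as follows. Casp1 was nearest to Rdh10 (r = 0.98), Nbr1 and Arhgef6, and Apaf1 to Fcgrt (r = 0.97), Hspa2 and Gcnt1. Casp9 was nearest to Neurl4 (r = 0.96), Nudt16l1 and Cops7b. Likeness over 9 libraries says nothing of shared control, since the best of some 10408 candidates was taken each time.

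**Figure D5:**
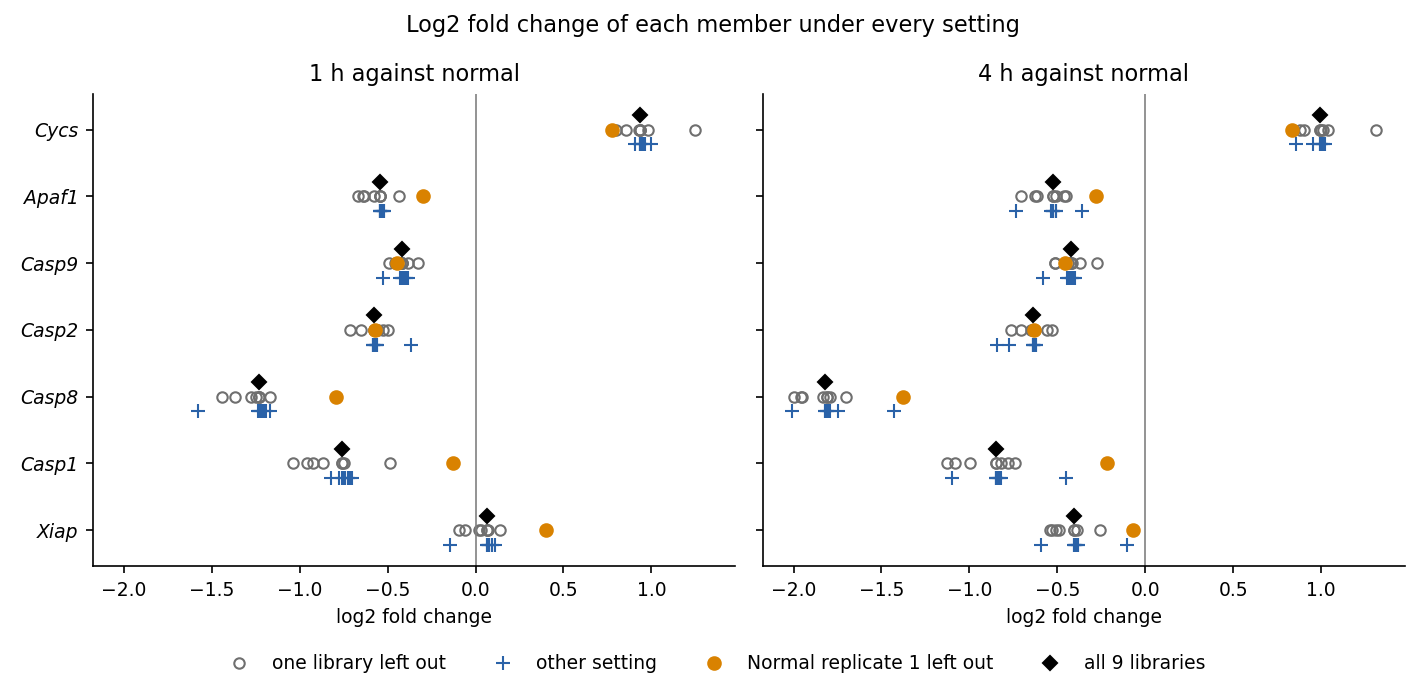
Log2 fold change (x axis) of the 7 genes tested, at 1 h and 4 h against normal, with all 9 libraries (diamonds), with 1 library left out (circles, the filled one without normal replicate 1) and under the other settings (crosses). Cycs stays above 0, and Casp1, Casp2, Casp8, Casp9 and Apaf1 stay below 0 throughout. At 1 h without normal replicate 1, Casp1 reaches -0.13 and Xiap 0.40.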

How the data were processed

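Superior mesenteric arteries of 9 rats, per the series description 3 per group, gave 9 libraries. The study's methods speak of 3 individuals for the 9 chips, but also state that rats were killed at the end of ischemia. The libraries were therefore treated as coming from 9 rats. RNA was isolated with Trizol per the labels and checked for integrity, and libraries followed a standard Illumina protocol. Nothing states which steps gave the table, since microarrays are described too. The submitters' processing notes name HISAT2. The counting program, genome build, annotation and use of strand are not given in the sources used here. The deposited values are raw counts, not normalized by the authors, of 37203 gene symbols, and each of the 9 columns matched 1 sample title. Every pair of libraries differed by far more than sampling noise (chi-square per degree of freedom at least 29.9).

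Counts were filtered with filterByExpr, which left 15482 genes, scaled by TMM and tested with edgeR 4.0.16 (R 4.3.3, quasi-likelihood F-test) on all 9 libraries with group as the only term. Benjamini-Hochberg adjustment covered every gene tested, with the study's thresholds of 0.05 and a fold of 1.5. P-values weigh the difference between groups against the spread of libraries within groups, with the libraries taken as independent. Standard errors are the absolute log2 fold change over the root of its F statistic. CPM use TMM-scaled library sizes, and log2 CPM a prior count of 2. DESeq2 1.42.0, other scalings, filters, covariates and left-out libraries were tried. The common biological coefficient of variation was 51.6%. The test was tried on simulated data.

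The genes, 5 further pathway lists and 8 marker lists were chosen with earlier results of these data known. Genes of a pathway list were named in full at an unadjusted p under 0.05 at 1 h or 4 h, at most 5 a list. Values of Nrf1, Cyc1, Hccs, Cyct, Cradd, Fadd, Gsdmd, Casp4, Casp12 and Casp14 were added for their roles. The 3 genes most like each gene were taken by Pearson's r, leaving out uncharacterised identifiers. Of the 8 symbols, 8 matched the RefSeq gene table and 6 its promoter table. No gene coordinates from the counts are given. Some other genes of these pathways are not reported here.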

Additional observations from a re-analysis of the deposited data

How the results depend on the processing

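Over the genes named, 810 log2 fold changes were recomputed under other settings, of which 785 kept their direction and side of the threshold, 20 turned sign and 5 became called. DESeq2 called 1 of the 7 genes at 1 h (Cycs) and 2 at 4 h (Cycs and Casp8), against 0 in edgeR, and over all genes it called 702 and 610 against 9 and 14. Without 1 library the calls over all genes ran from 0 to 11 at 1 h and from 1 to 14 at 4 h, and for the 7 genes they stayed at 0. The number of the 7 with an unadjusted p under 0.05 at 4 h against 1 h ran from 0 to 1, the 1 being without normal replicate 1. In that fit 475 of 15744 genes tested passed that p. With nerve markers as a term edgeR called 9 and 115 genes, and with macrophage markers 47 and 27. With only the 2 groups compared it called 4 at each time.

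Values near 0 turned sign. At 4 h against 1 h, Casp1 was 0.248 with macrophage markers as a term, Casp9 0.0867 with nerve markers, Apaf1 -0.193 on library size alone and -0.0115 with only the groups compared, and Cycs -0.137 on library size alone, where the median of all genes was -0.239. Xiap at 1 h was -0.146 with nerve markers. Without 1 library, at 4 h against 1 h, Casp1 ran from -0.360 to 0.139, Casp2 from -0.191 to 0.0748, Casp9 from -0.0974 to 0.141, Apaf1 from -0.163 to 0.111 and Cycs from -0.0306 to 0.139, and Xiap at 1 h ran from -0.0925 to 0.403. The cause was not tested.

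Replicate numbers were not used to pair the samples in the main test. Same-numbered libraries correlated from -0.651 to 0.660 in their deviations, and several correlated best with another number. Pairs of replicate 1 were all negative (-0.0211, -0.651 and -0.172), pairs of replicate 2 all positive (0.417, 0.282 and 0.623), and those of replicate 3 mixed. The mix of tissue differed between libraries and can enter these values, so they cannot tell whether the samples were paired. A replicate block called 0 of the 7 genes and 7 genes of the table at each time. In that fit 3 of the 7 had an unadjusted p under 0.05 at 1 h and 3 at 4 h. Among all 15482 genes tested, 2781 passed that p at 1 h and 1759 at 4 h. Low counts limit Casp6 and Pycard in particular.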
